A study of Mus musculus with 20 samples.

Results

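The lysosome genes described here are 46 named genes for acid hydrolases, lysosomal membrane proteins and their regulators, followed in kidney RNA from mice with or without telomerase. They were chosen by name, with no threshold on a measured value but with earlier results of these data known, and Gusb, Glb1 and Ctss were left out of the choice. All 46 were among the 19940 genes of the deposited table, and all 46 were among the 14630 genes that passed the filter on low values and were tested. They comprise 11 acid proteases, 15 glycosidases and sulfatases, 8 genes of lipid breakdown and cholesterol export, 7 membrane proteins, 3 other luminal or secreted proteins and 2 transcription factors.

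The samples were kidneys of male mice in 4 groups with 5 libraries each. The first was G3 Tert-/- at 47 weeks, called G3 Tert-/- old, and the second was Tert+/+ at 47 weeks, called Tert+/+ old. The others were G3 Tert-/- at 7 weeks and Tert+/+ at 7 weeks, called young. Tert encodes the catalytic subunit of telomerase, and G3 marks the third generation bred without it, in which telomeres have shortened over generations. The deletion is in every cell of the mouse, and no strain is named. Both genotypes are from the same animal facility, and the labels do not name the mouse behind each library, so p-values measure the spread between these libraries.

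Lysosomes are acidic organelles in which proteases, glycosidases, sulfatases, lipases and nucleases break down material delivered by endocytosis and autophagy. Most of the luminal enzymes carry a mannose 6-phosphate tag that directs them to the organelle, and heavily glycosylated membrane proteins line its inner face. In the kidney, proximal tubule cells take up filtered proteins through megalin and cubilin and degrade them in lysosomes. Many lysosomal genes are transcribed under TFEB and TFE3, which bind a short palindromic element around an E-box.

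The libraries held 7161690 to 9757594 reads each, and 18628 to 19137 genes were above 0. Old libraries held 7161690 to 8156022 reads and young libraries 7486637 to 9757594. The numbers in the sample names also run in a separate block for each group, so they separate the genotypes as well as the ages, and no batch is named. The part of depth or sample order in the age and genotype differences was not tested. The values are normalized counts, that is, the reads of each gene divided by 1 factor per library. A library that shows none of a gene's reads could still have missed 3 of them, which is worth 2.49 to 3.38 normalized counts here, and this limit reflects counting error alone. Reads come from the 3′ end of each transcript, so a value does not depend on gene length, but priming differs between genes and levels are compared here within a gene only. Tert itself was listed at 0.979 to 8.31 normalized counts in the G3 Tert-/- libraries of both ages, against 4.21 to 16.9 in the Tert+/+ libraries, and the ranges overlapped. Which part of Tert was deleted is not stated, so these few 3′ reads do not check the labels. All 17 proximal tubule markers were detected in each group. 2 libraries stood apart from the rest. Over 7252 abundant genes, the log2 departure from each gene's median over all libraries was taken. Its SD was 0.625 in Tert+/+ young 1 and 0.508 in Tert+/+ old 4, against 0.192 to 0.398 in the other libraries. This SD also holds differences between the groups.

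In old kidneys 35 of the 46 lysosome genes had a fitted level below that in young kidneys, most by too little to pass the test, and 3 fell when the age effect was averaged over both genotypes. These were Lamp2, a glycoprotein of the lysosomal membrane, Arsb, which removes sulfate from dermatan and chondroitin sulfate, and Ctsh, a cysteine protease. Their levels were 19%, 27% and 17% lower in old kidneys. No lysosome gene passed the test when old and young were compared within either genotype, and none passed between the genotypes at either age.

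The age comparison averaged over genotypes was chosen after the data had been seen. In it, limma, adjusted over all 14630 genes by the Benjamini-Hochberg method, called 3 lysosome genes lower and none higher, while 4.49% of all tested genes were called. An unadjusted p under 0.05 was reached by 13 lysosome genes, 12 of them lower, against 17.4% of all tested genes in either direction. The fitted log2 fold changes had a median of -0.10 against 0.0049 over all tested genes, of which 49.0% were below 0. The 95% interval of the difference lay within 2-fold in either direction for 45 of the 46 and within 1.5-fold for 42.

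Within G3 Tert-/- kidneys, old against young, limma called 0 lysosome genes and 2.24% of all tested genes. At an unadjusted p under 0.05 there were 11, all lower in old kidneys, against 14.9% of all tested genes in either direction. edgeR called 0, with 11 at an unadjusted p under 0.05. DESeq2 called 3, and 530 of all tested genes, against 327 by limma. The 5 members with the smallest p were Arsb, Ctsh, Man2b1, Gm2a and Lamp2, and their adjusted p by limma ran from 0.0560 for Arsb to 0.146 for Lamp2. The median log2 fold change was -0.12, with 34 of 46 below 0. The libraries of the age groups did not overlap for 5 lysosome genes, all lower in old kidneys (Ctsh, Man2b1, Lamp2, Smpd1 and Gaa), while this held for 4.60% of all tested genes.

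Within Tert+/+ kidneys, old against young, limma called 0 lysosome genes and 0.649% of all tested genes. The 4 with an unadjusted p under 0.05 were Lamp2, Arsb, Ctsb and Mcoln1, all lower in old kidneys, against 10.6% of all tested genes. edgeR called 0, with 4 at an unadjusted p under 0.05. DESeq2 called 1, Lamp2, and 211 of all tested genes, against 95 by limma. The smallest adjusted p by limma was 0.10 for Lamp2, and the fifth member by p was Ctsh (adjusted p by limma 0.469). The median log2 fold change was -0.10, with 30 of 46 below 0, and it was -0.04 without Tert+/+ old 4. The age groups did not overlap for Lamp2 and Arsb, both lower in old kidneys, against 2.53% of all tested genes. The G3 Tert-/- and Tert+/+ age comparisons share no library, and 26 lysosome genes (56.5%) were below 0 in both, against 28.8% of all tested genes, while 8 were above 0 in both and 12 had opposite signs.

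**Figure D1:**
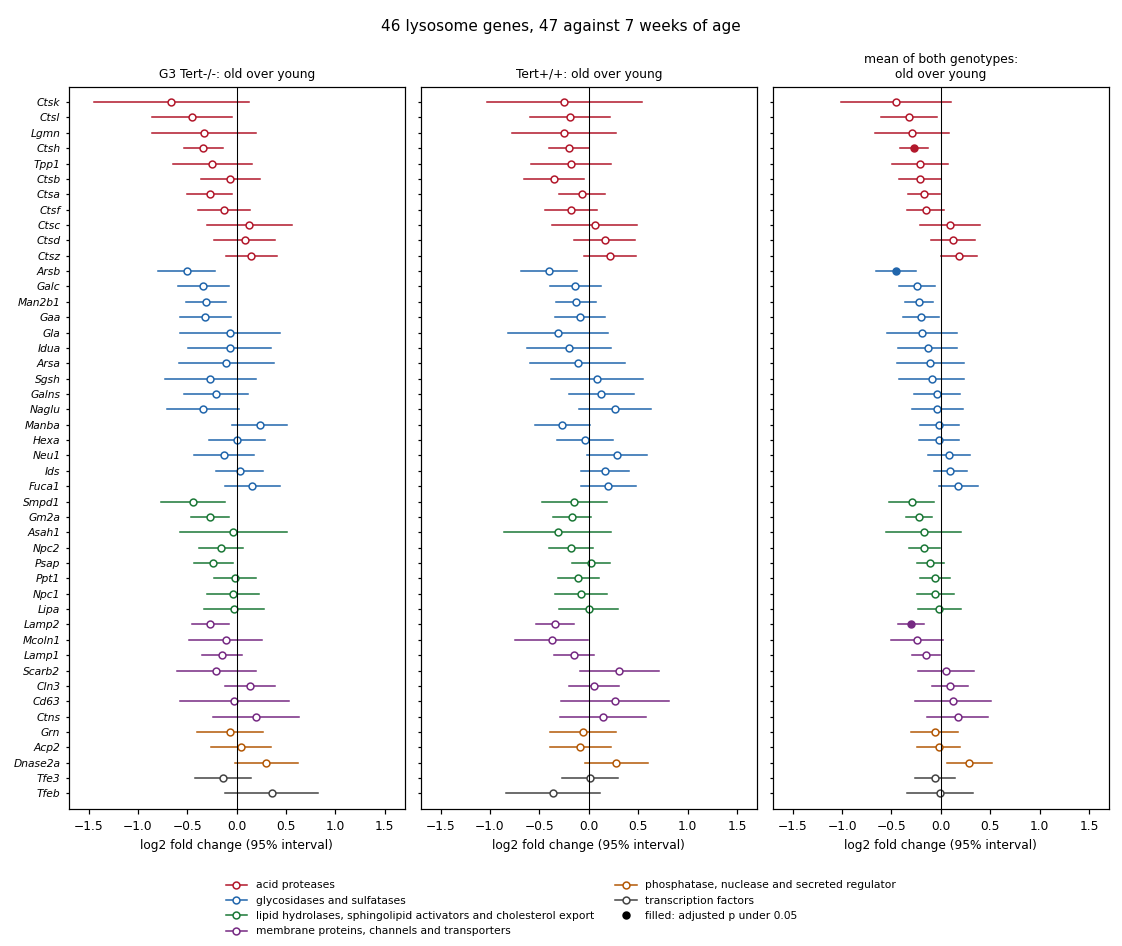
Log2 fold change of old over young kidneys with its 95% interval for the 46 lysosome genes, coloured by role, in G3 Tert-/- kidneys, in Tert+/+ kidneys and as the mean of both genotypes. Points lie left of 0 for 34, 30 and 35 genes in the 3 panels, and only Lamp2, Arsb and Ctsh in the averaged panel are filled, which marks an adjusted p under 0.05.

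Among the membrane proteins, Lamp2, which with Lamp1 makes up much of the protein of the lysosomal membrane and serves as a receptor in chaperone-mediated autophagy, separated the ages in both genotypes. Its normalized counts were 2279.5, 2221, 2271, 2178 and 2099 in G3 Tert-/- old kidneys, against 2619.7, 2749, 2436, 2769 and 2732 in G3 Tert-/- young kidneys. In Tert+/+ old kidneys they were 2365, 2072, 2328, 1815 and 2158, against 3146, 2399, 2626, 2547 and 2888 in Tert+/+ young kidneys. Every old library was below every young library of its genotype, and the lowest old value was that of Tert+/+ old 4, one of the libraries that stood apart. The averaged log2 fold change was -0.30 ± 0.065 (SE; adjusted p by limma 0.00648), and with any 1 library left out it lay between -0.33 and -0.27 with an adjusted p of at most 0.0155.

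Lamp1 averaged 5403 ± 372 in G3 Tert-/- old and 6001 ± 513 in G3 Tert-/- young kidneys, and 5784 ± 564 in Tert+/+ old and 6411 ± 546 in Tert+/+ young kidneys (SD, n = 5 each). Its averaged log2 fold change of -0.15 did not pass (adjusted p by limma 0.250). Mcoln1, the calcium channel of the lysosomal membrane, was at -0.24 (adjusted p by limma 0.328). The other membrane proteins leaned the other way without passing: Scarb2, which carries glucocerebrosidase to the lysosome, was at 0.05, the tetraspanin Cd63 at 0.12, Cln3, a membrane protein mutated in Batten disease, at 0.09 and the cystine exporter Ctns at 0.17. Cd63 carried the widest uncertainty of these, because its count was 2319 in Tert+/+ young 1, against 9216 to 10004 in the other Tert+/+ young kidneys.

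Among the glycosidases and sulfatases, Arsb was the one gene called, in the age comparison averaged over genotypes. Neither its age comparison within a genotype nor its genotype comparison at either age passed by limma. The normalized counts were 157, 134, 148, 182 and 128 in G3 Tert-/- old kidneys, against 203, 235, 189, 269 and 176 in G3 Tert-/- young kidneys. Tert+/+ old kidneys had 245, 181, 209, 164 and 231, against 258, 249.8, 246, 273 and 333 in Tert+/+ young kidneys. The highest G3 Tert-/- old value lay above the lowest G3 Tert-/- young value, while the Tert+/+ ages were separated, if narrowly. The averaged age effect was -0.46 ± 0.098 (SE, log2; adjusted p by limma 0.00713), with leave-one-out values of -0.49 to -0.41 and adjusted p of at most 0.0182. Arsb lies on chromosome 13 (93771630 to 93943016, plus strand, GRCm38), as does Tert (73626911 to 73649843), 20.1 Mb away. The protease gene Ctsl is also on chromosome 13, nearer to Tert at 9.26 Mb. By limma neither gene was called in a genotype comparison, and any part of the Tert region in their levels was not tested. An antisense gene, Gm26527, overlaps the 3′ end of Arsb, and reads were counted by strand, per the labels' protocols.

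Man2b1, the lysosomal alpha-mannosidase, came next in this class. Its counts were 687, 703, 648, 712 and 697 in G3 Tert-/- old kidneys, against 860.2, 844, 793, 997 and 788 in G3 Tert-/- young kidneys, and the groups did not overlap. In Tert+/+ kidneys the range was 569 to 765 in old mice and 604 to 826 in young mice, which overlapped for most of its length. The averaged log2 fold change was -0.22 ± 0.069 (SE; adjusted p by limma 0.0731), and the value within G3 Tert-/- was -0.31 (adjusted p by limma 0.109). DESeq2 called Man2b1 in both of these comparisons.

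Galc, which removes galactose from galactosylceramide, ranged from 237 to 286 in G3 Tert-/- old kidneys, against 267 to 392 in G3 Tert-/- young kidneys. Its averaged value was -0.24 (adjusted p by limma 0.139). Gaa, the acid alpha-glucosidase that degrades glycogen, ranged from 171 to 224 in G3 Tert-/- old kidneys, all below the 227 to 275 of G3 Tert-/- young kidneys. In Tert+/+ kidneys Gaa ranged from 221 to 266 in old mice and from 224 to 362 in young mice, the highest value being that of Tert+/+ young 1. In all, 12 of the 15 glycosidases and sulfatases had an averaged age effect below 0, 1 of them called, and 4 had an unadjusted p under 0.05. Gla, Idua and Arsa, with group means of 21.7 to 39.0 normalized counts, were at -0.19, -0.14 and -0.11, and Sgsh, Galns, Naglu, Manba and Hexa lay between -0.09 and -0.02. Fuca1, the lysosomal alpha-fucosidase, Ids, the iduronate sulfatase, and Neu1, the lysosomal sialidase, were the 3 above 0, at 0.18, 0.10 and 0.08.

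Among the acid proteases, Ctsh was lowest in G3 Tert-/- old kidneys. Counts were 1534, 1649.6, 1566, 1519 and 1619.6 in G3 Tert-/- old kidneys, against 2160.1, 1915, 1741, 2196 and 1978 in G3 Tert-/- young kidneys. In Tert+/+ old kidneys they were 1915, 1803, 1561, 2118 and 1587, against 2011, 2222, 2231, 1988 and 1826 in Tert+/+ young kidneys. The ages were separate in G3 Tert-/- and overlapped in Tert+/+, where 3 old libraries lay below all young ones and 2 did not. The averaged log2 fold change was -0.27 ± 0.068 (SE; adjusted p by limma 0.0241). The call was lost without Tert+/+ old 3 (adjusted p by limma 0.0540) and without Tert+/+ old 5 (adjusted p by limma 0.0533).

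Of the 11 acid proteases, 8 were below 0 in the averaged age comparison, 1 of them called. Ctsl, a cysteine protease abundant in the proximal tubule, averaged 943 ± 224 in G3 Tert-/- old and 1272 ± 143 in G3 Tert-/- young kidneys, and 875 ± 236 in Tert+/+ old and 990.2 ± 269 in Tert+/+ young kidneys (SD, n = 5 each). Its averaged log2 fold change of -0.32 did not pass (adjusted p by limma 0.217). Lgmn, the asparagine-specific protease legumain, was at -0.29, Tpp1, a tripeptidyl peptidase, at -0.21, the cysteine proteases Ctsb and Ctsf at -0.21 and -0.16, and Ctsa, which also protects neuraminidase, at -0.17. Ctsd, the main aspartic protease of lysosomes, was at 0.12, Ctsc, which activates serine proteases of leukocytes, at 0.09, and the carboxypeptidase Ctsz at 0.18. Ctsk, the collagen-degrading protease of osteoclasts, was near the filter at 8.48 ± 3.83 in G3 Tert-/- old and 14.2 ± 6.35 in G3 Tert-/- young kidneys, and 10.4 ± 4.18 in Tert+/+ old and 12.2 ± 5.14 in Tert+/+ young kidneys (SD, n = 5 each). Its interval of -1.01 to 0.10 was the widest of the 46.

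**Figure D2:**
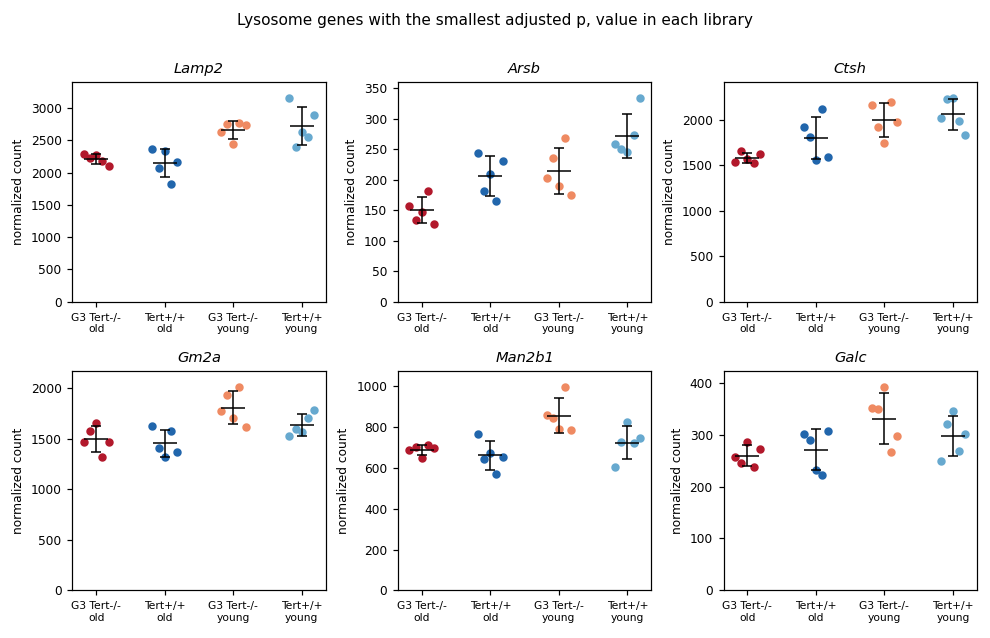
Normalized count in each library for the 6 lysosome genes with the smallest adjusted p in any comparison, with the mean and SD of each group of 5 in black. For Lamp2 all old libraries (1815 to 2365) lie below all young ones (2399 to 3146), whereas the ages overlap in Tert+/+ for Ctsh, Gm2a, Man2b1 and Galc.

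All 8 genes of lipid breakdown and cholesterol export were below 0 in the averaged age comparison, Asah1 among them with 1 outlying library given below. Their median log2 fold change was -0.14, and none passed. 3 had an unadjusted p under 0.05. Gm2a, the activator that presents GM2 ganglioside to hexosaminidase, had 1465, 1571, 1652, 1322 and 1468 normalized counts in G3 Tert-/- old kidneys, against 1775, 1934, 1700.1, 2009 and 1612 in G3 Tert-/- young kidneys. Tert+/+ old kidneys had 1621, 1403, 1313, 1571 and 1366, against 1523, 1594, 1564, 1706 and 1785 in Tert+/+ young kidneys. 1 library on each side kept the G3 Tert-/- ages from separating, and the Tert+/+ ages overlapped. The averaged value was -0.22 ± 0.065 (SE, log2; adjusted p by limma 0.0539), and DESeq2 called it (adjusted p by DESeq2 0.0132).

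Smpd1, the acid sphingomyelinase, had 408, 362, 428, 443 and 391 in G3 Tert-/- old kidneys, all below the 521, 509, 484, 888 and 450.2 of G3 Tert-/- young kidneys. One value, 888 in G3 Tert-/- young 4, was far above the rest of its group. The averaged log2 fold change was -0.30 (adjusted p by limma 0.147). Npc2, which carries cholesterol inside the lysosome, was at -0.17, Asah1, the acid ceramidase, at -0.17, and Psap, the precursor of the saposins, at -0.11. Asah1 was 495 in Tert+/+ young 1, against 130.4 to 162 in the other Tert+/+ young kidneys. By group medians Asah1 was 142 in G3 Tert-/- old against 146 in G3 Tert-/- young kidneys. The medians were 137 in Tert+/+ old against 142 in Tert+/+ young kidneys. Npc1, the membrane protein that passes on cholesterol from Npc2, and Ppt1, a palmitoyl-protein thioesterase, were both at -0.06, and the acid lipase Lipa was at -0.01.

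Dnase2a, the acid DNase of lysosomes, was the lysosome gene with the highest averaged age effect, at 0.29 ± 0.11 (SE, log2), without passing (adjusted p by limma 0.147). It had 127, 102, 129, 113 and 121 normalized counts in G3 Tert-/- old kidneys, against 98.1, 93.9, 70.6, 115 and 107 in G3 Tert-/- young kidneys. In Tert+/+ kidneys it ranged from 91.2 to 124 in old mice and from 62.0 to 116 in young mice. The ages overlapped in both genotypes. The acid phosphatase Acp2 was at -0.02, and Grn, the secreted precursor of the granulins, at -0.06.

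Of the transcription factors, Tfeb had no common direction with age. It averaged 69.4 ± 9.17 in G3 Tert-/- old and 59.4 ± 33.2 in G3 Tert-/- young kidneys, and 58.3 ± 11.1 in Tert+/+ old and 74.5 ± 6.78 in Tert+/+ young kidneys (SD, n = 5 each). The spread in G3 Tert-/- young kidneys came from 1 library at 117, against 32.0 to 51.9 in the other 4. Tfe3 averaged 126 ± 8.82 in G3 Tert-/- old and 141 ± 30.5 in G3 Tert-/- young kidneys, and 128 ± 21 in Tert+/+ old and 126 ± 12.8 in Tert+/+ young kidneys (SD, n = 5 each). Their averaged age effects were -0.005 and -0.06, and neither passed.

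The element bound by TFEB and TFE3 was looked for in RefSeq promoters on GRCm38.p6, each from 250 bases before to 50 after a start. A promoter was given for 41 of the 46 lysosome genes, and none for Npc1, Ctsh, Galns, Ctsb and Asah1. The E-box core CACGTG, which reads the same on both strands, was in the promoters of 13 of the 41 (31.7%), against 8.09% of 27025 genes. TCACGTG on either strand, which contains the core, was found for 11 (26.8%), against 4.29% of all genes. TCACGTGA was found for 5 (12.2%), against 1.12% of all genes, and the full palindrome GTCACGTGAC for 1, Cln3, against 0.370% of all genes. Lamp1 held 4 matches to the core, and Cln3, Ctsa, Ctsd, Gla and Mcoln1 held 2 each. Lamp2 and Arsb had no CACGTG in their windows.

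The stretches around the matches are shown for the 5 genes with TCACGTG that had the smallest adjusted p in any comparison, so that number and spacing can be compared. Each is from the plus strand of GRCm38.p6, 5′ to 3′, with the matched E-box and its flanking T or A in capitals.
Gaa, chr11:119267803-119267849: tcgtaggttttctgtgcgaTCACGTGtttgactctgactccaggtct
Ctsa, chr2:164833741-164833787: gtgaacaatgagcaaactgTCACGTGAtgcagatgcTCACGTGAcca
Lamp1, chr8:13159080-13159172: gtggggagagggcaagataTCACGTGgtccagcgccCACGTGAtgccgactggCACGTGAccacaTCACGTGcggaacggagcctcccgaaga
Mcoln1, chr8:3500428-3500500: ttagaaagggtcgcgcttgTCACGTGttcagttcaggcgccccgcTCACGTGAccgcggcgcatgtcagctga
Naglu, chr11:101070001-101070047: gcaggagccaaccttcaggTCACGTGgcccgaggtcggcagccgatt
Lamp1 carried its 4 copies within 1 stretch of 93 bases ending just after the start, Ctsa carried 2 copies on either side of the start, and Gaa carried 1 copy farther upstream. The 13 genes with CACGTG had a median averaged age effect of -0.16, with 11 below 0. The median was -0.04, with 19 below 0, for the 28 without it. For the 5 genes with no promoter given it was -0.17, with all 5 below 0. Within Tert+/+ kidneys the medians with and without CACGTG were -0.11 and -0.07, and within G3 Tert-/- kidneys -0.15 and -0.07.

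**Figure D3:**
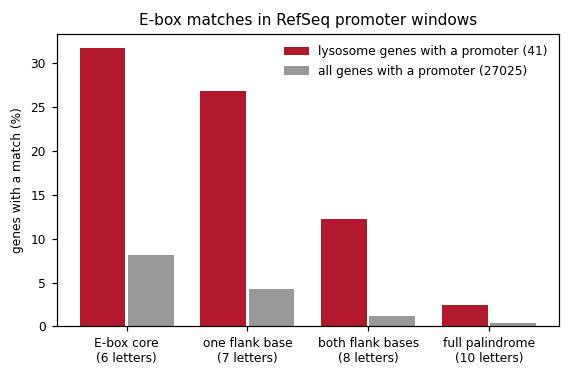
Percentage of genes whose promoter window holds the E-box core or a longer form of it, for the 41 lysosome genes with a promoter and for 27025 genes. The lysosome genes stand above all genes at each length, at 31.7% against 8.09% for the core and 12.2% against 1.12% with both flanking bases. For the full palindrome this rests on 1 lysosome gene, Cln3.

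Between the genotypes, no lysosome gene passed at either age. In old kidneys, G3 Tert-/- against Tert+/+, limma called 0 lysosome genes and 0.0957% of all tested genes. At an unadjusted p under 0.05 there were 7, 2 higher and 5 lower in G3 Tert-/-, against 6.58% of all tested genes. edgeR and DESeq2 called 0, with 6 and 7 at an unadjusted p under 0.05. The fitted values were above 0 for 23 and below 0 for 23. The 95% interval of the difference lay within 2-fold for 45 of the 46 and within 1.5-fold for 35.

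Arsb had the smallest p in old kidneys, with 128 to 182 normalized counts in G3 Tert-/- against 164 to 245 in Tert+/+. The log2 fold change was -0.45 ± 0.14 (SE; adjusted p by limma 0.427). Psap was the one lysosome gene whose old genotype groups did not overlap, while this held for 2.31% of all tested genes. Psap had 7728, 7704, 8070.1, 7691 and 7287 normalized counts in G3 Tert-/- old kidneys, against 9515, 8788, 9214, 8287 and 9065 in Tert+/+ old kidneys. Every G3 Tert-/- old library was below every Tert+/+ old library, and the fitted difference was -0.22 (adjusted p by limma 0.707).

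Naglu, which removes N-acetylglucosamine from heparan sulfate, ranged from 168 to 239 in G3 Tert-/- old kidneys, against 228 to 445 in Tert+/+ old kidneys, where the value of 445 was that of Tert+/+ old 4. Its log2 fold change was -0.47 (adjusted p by limma 0.598). Manba, the lysosomal beta-mannosidase, ranged from 138 to 213 in G3 Tert-/- old kidneys, against 117 to 168 in Tert+/+ old kidneys, a log2 fold change of 0.36 (adjusted p by limma 0.598). Ctsc ranged from 110.1 to 169 in G3 Tert-/- old kidneys, against 56.3 to 122 in Tert+/+ old kidneys, a log2 fold change of 0.51 (adjusted p by limma 0.670). All 3 overlapped between the genotypes.

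In young kidneys, G3 Tert-/- against Tert+/+, limma called 0 lysosome genes and 0% of all tested genes. At an unadjusted p under 0.05 there were 6, 4 higher and 2 lower in G3 Tert-/-, against 10.7% of all tested genes. edgeR and DESeq2 called 0, with 4 each at an unadjusted p under 0.05. No lysosome gene had groups that did not overlap, against 1.40% of all tested genes. Scarb2 ranged from 320.5 to 457 in G3 Tert-/- young kidneys, against 141 to 338 in Tert+/+ young kidneys, and its lowest value was that of Tert+/+ young 1. Its log2 fold change was 0.53 ± 0.19 (SE; adjusted p by limma 0.435). Arsb was at -0.35, Man2b1 at 0.24, Ctsc at 0.44 and Mcoln1 at -0.38, with adjusted p by limma from 0.435 to 0.466. Mcoln1 was at -0.19 without G3 Tert-/- young 3, and Ctsc was at 0.27 and Scarb2 at 0.33 without Tert+/+ young 1.

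**Figure D4:**
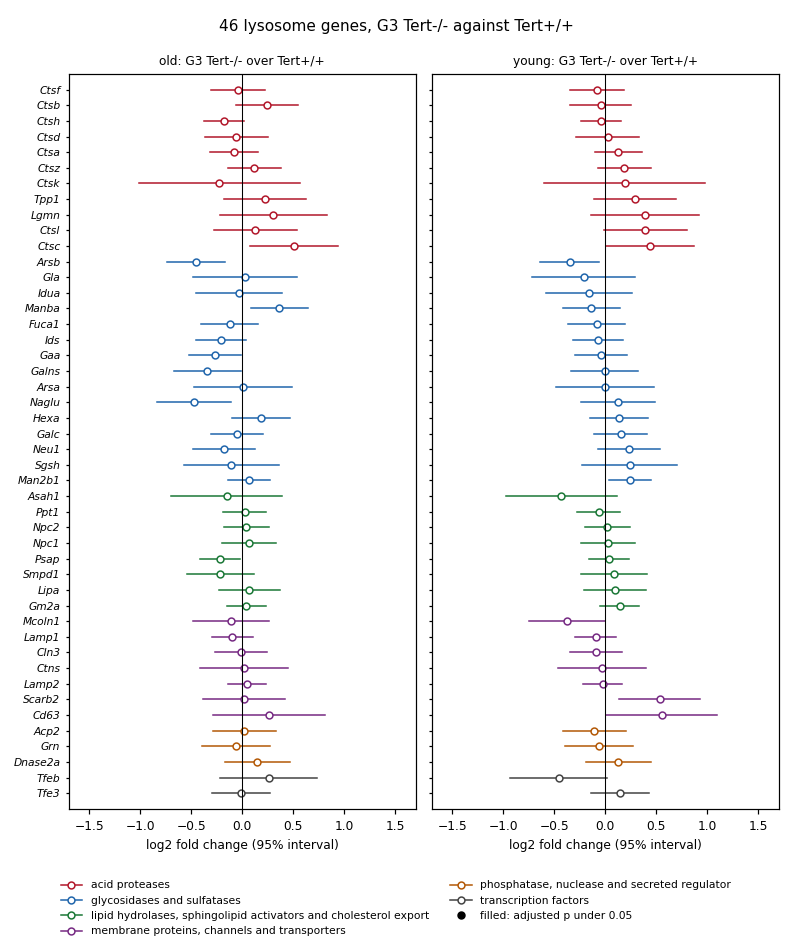
Log2 fold change of G3 Tert-/- over Tert+/+ kidneys with its 95% interval for the 46 lysosome genes, coloured by role, at 47 weeks (old) and at 7 weeks (young). Points fall on both sides of 0, with 23 of 46 below 0 in old and 22 of 46 below 0 in young kidneys, and no point is filled.

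Averaged over the ages, a comparison also chosen after the data had been seen, limma called 0 lysosome genes between the genotypes and 0.0273% of all tested genes. At an unadjusted p under 0.05 there were 4, 3 higher and 1 lower in G3 Tert-/-, against 11.1% of all tested genes. edgeR called 0, with 3 at an unadjusted p under 0.05. DESeq2 called 56 of all tested genes, against 4 by limma. Among the 56 was 1 lysosome gene, Arsb (adjusted p by DESeq2 0.0374), whose log2 fold change by limma was -0.40 (adjusted p by limma 0.153). Ctsc followed with 0.48 (adjusted p by limma 0.314). 13 lysosome genes (28.3%) were below 0 and 14 (30.4%) above 0 at both ages, against 27.1% and 29.3% of all tested genes.

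Whether the genotype effect differed between the ages was tested as an interaction, the genotype effect in old minus that in young kidneys. limma called 0 lysosome genes and 0.00684% of all tested genes. The 3 with an unadjusted p under 0.05 were Manba, Naglu and Tfeb, against 6.22% of all tested genes. edgeR and DESeq2 called 0, with 2 and 3 at an unadjusted p under 0.05. The smallest adjusted p by limma was 0.774, for Manba (0.50) and Naglu (-0.60), and Tfeb was at 0.72 (adjusted p by limma 0.793). These intervals were wider than those of the single comparisons, and 24 of the 46 lay within 1.5-fold.

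The SD of the lysosome genes within groups had a median of 0.242 on the log2 scale, against 0.302 over all tested genes, and ran from 0.109 for Psap to 0.609 for Ctsk. Asah1 and Cd63 owed much of their spread to Tert+/+ young 1, where Asah1 was 495, against 130.4 to 162 in the other Tert+/+ young kidneys. Without Tert+/+ young 1 and Tert+/+ old 4, limma called 6 lysosome genes in the averaged age comparison, all lower in old kidneys. Over all tested genes, calls in that comparison rose from 657 to 944. Gm2a, Man2b1 and Npc2 joined Lamp2 at -0.25 (adjusted p by limma 0.00826), Arsb at -0.42 (adjusted p by limma 0.00939) and Ctsh at -0.30 (adjusted p by limma 0.00575). Within G3 Tert-/- kidneys, whose libraries were all kept, 4 were then called, Arsb, Ctsh, Man2b1 and Lamp2, since the spread is estimated over all groups. Calls there rose from 327 to 661 over all tested genes. No lysosome gene was called between the genotypes. Several values that had not passed moved nearer to 0 without these libraries. Scarb2 in young kidneys was then at 0.33, Naglu in old kidneys at -0.31 and Ctsc averaged over ages at 0.31, all as G3 Tert-/- over Tert+/+, and Ctsb within Tert+/+, old over young, was at -0.14 (-0.35 with them).

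Other genes of the pathway were taken from lists. In the averaged age comparison, 4.49% of all tested genes were called and 49.0% were below 0. There, 34 further lysosomal enzymes and membrane proteins had 3 calls. Scpep1, a serine carboxypeptidase, was at -0.44 and Dpp7, a dipeptidyl peptidase, at -0.54, both lower in old kidneys, while Hyal1, the lysosomal hyaluronidase, was at 0.67, and 24 of the 34 were below 0. Of 17 subunits of the proton pump found in most cells, 15 were below 0 and 2 were called, Atp6v0a2 at -0.37 and Atp6v0d1 at -0.27. Among 20 autophagy genes 16 were below 0 and 1 was called, Atg5 at -0.30. Of 17 tested genes of nutrient sensing on the lysosome, 15 were below 0 and 1 was called, Flcn, a regulator of TFEB and TFE3, at -0.54. None of the 14 genes of mannose 6-phosphate tagging and sorting and none of the 5 proton pump subunits of intercalated cells was called by limma, with 2 at an unadjusted p under 0.05 in each list. Within G3 Tert-/- kidneys, old against young, Scpep1 at -0.47, the proton pump subunit Tcirg1 at 0.59 and Mtor, the growth-controlling kinase, at -0.53 were called. The share of all tested genes called there was 2.24%. Within Tert+/+ kidneys, Hyal1 at 0.88 was the one call of these lists, against 0.649% of all tested genes. In the genotype comparisons none of these lists had a call by limma.

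Markers of several kidney cell types, but not of all, moved with age as well. In bulk tissue, fewer cells of a type and less RNA per cell cannot be told apart. Over all tested genes, 4.49% were called and 49.0% were below 0 in the averaged age comparison. Of 17 proximal tubule markers, 11 were below 0 in the averaged age comparison, with 4 called lower (Acsm2, Slc5a2, Slc22a6 and Slc34a1) and 1 called higher (Slc22a8). Their summed normalized counts were 105689 to 124724 in G3 Tert-/- old and 123841 to 151145 in G3 Tert-/- young kidneys, and 113349 to 140724 in Tert+/+ old and 131673 to 155170 in Tert+/+ young kidneys. Of 14 macrophage markers, 13 were above 0 in old kidneys and 1 was called, C1qb at 0.46. Their sums were 1388 to 2170 in G3 Tert-/- old and 1263 to 1569.6 in G3 Tert-/- young kidneys, and 1378 to 2030.4 in Tert+/+ old and 975 to 2024 in Tert+/+ young kidneys. Of 8 fibroblast markers, 4 were called lower in old kidneys (Col1a1, Col3a1, Dcn and Col1a2), with sums of 1438 to 1949 in G3 Tert-/- old and 2229 to 4674 in G3 Tert-/- young kidneys, and 1170.1 to 1855 in Tert+/+ old and 2121 to 2846 in Tert+/+ young kidneys. Of 9 B cell and plasma cell markers, 6 were tested and 4 were called higher in old kidneys (Igkc, Igha, Jchain and Ighm). Their sums were 412 to 9624 in G3 Tert-/- old and 282 to 939 in G3 Tert-/- young kidneys, and 2973 to 9394 in Tert+/+ old and 92.6 to 609 in Tert+/+ young kidneys. Of 10 hepatocyte markers, 9 were tested and 1, Ttr at -1.08, was called lower in old kidneys. Their sums were 513 to 1133 in G3 Tert-/- old and 1331 to 2204 in G3 Tert-/- young kidneys, and 791 to 2560 in Tert+/+ old and 1122 to 1848 in Tert+/+ young kidneys. The 2560 was that of Tert+/+ old 4, against at most 1013 in the rest of its group. Of 8 genes with male-biased expression in the kidney, Acsm3 at -1.61, Slco1a1 at -1.50 and Odc1 at -0.66 were called lower in old kidneys and Cyp4a12a at 1.23 was called higher. Their sums were 121130 to 180655 in G3 Tert-/- old and 160325 to 261805 in G3 Tert-/- young kidneys, and 166828 to 220383 in Tert+/+ old and 201542 to 368384 in Tert+/+ young kidneys. Of 11 collecting duct and intercalated cell markers, 6 were above 0 and 5 below 0 in the averaged age comparison, and none was called. No marker of these lists was at 0 throughout a group. Some markers also differed between the genotypes. In old kidneys, Slco1a1 at -2.10, Acsm3 at -1.12 and Acsm2 at -0.59 were called lower in G3 Tert-/- than in Tert+/+. All 8 male-biased genes were below 0 in that comparison. Slco1a1 was also called in the interaction (-2.09) and between the genotypes averaged over ages (-1.05). The part of these markers in the lower levels of Lamp2, Arsb and Ctsh was not tested.

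**Figure D5:**
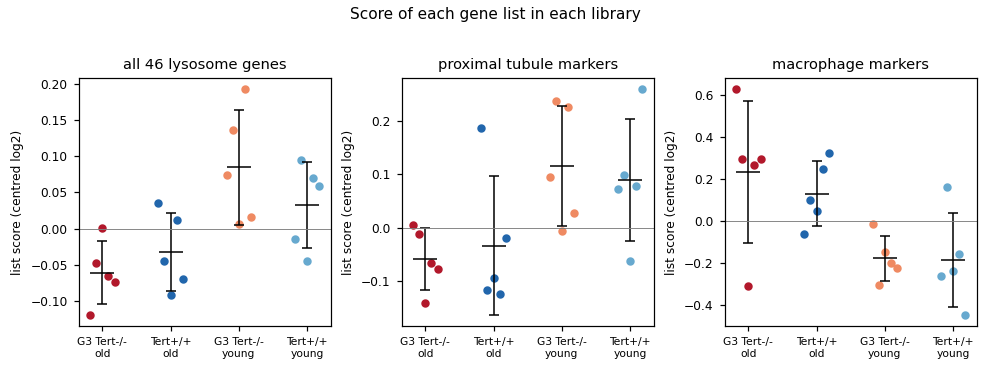
Score of the 46 lysosome genes, the proximal tubule markers and the macrophage markers in each library, as the middle of the centred log2 values over each list, with the mean and SD of each group of 5 in black. The lysosome score runs from -0.12 to 0.0010 in G3 Tert-/- old and from 0.0067 to 0.19 in G3 Tert-/- young kidneys, while the Tert+/+ ages overlap, and the 3 panels have different vertical scales.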

How the data were processed

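20 libraries of kidney RNA from male mice were sequenced from the 3′ end with a sense-strand kit (QuantSeq), from 300 ng of RNA with quality scores of 5.0 to 7.5 (mean 6.6), per the labels' protocols. The deposited signal is a normalized count, which the authors made by dividing each gene's reads by 1 factor per library, as read from the table's name and its values. Dividing by the step of each library gave whole reads for 100% of its values (relative tolerance 1e-06), and these reads entered the count tests. The submitters' processing notes name GRCm38, DESeq2, HTSeq 0.6.1, SAMtools 0.1.19, Bowtie 1.0.0, TopHat2 2.0.10 and FastQC 0.11.7, without roles.

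Genes with at least 10 normalized counts in at least 5 libraries were tested (14630 of 19940). log2(normalized count + 1) was fitted with limma 3.58.1 (R 4.3.3) as 4 group means over all 20 libraries with a trend on intensity. Tests were two-sided with Benjamini-Hochberg adjustment within a comparison, and an adjusted p under 0.05 was a call. Fold changes are on that log2 scale, which understates changes of low genes. Alternatives were edgeR 4.0.16 and DESeq2 1.42.0 on the recovered reads, TMM scaling, a pseudocount of 4, no filter, only the 2 groups compared, and leaving out libraries. The fit was tested on simulated data.

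The members and gene lists were chosen with earlier results of these data known. Replicates were numbered in the order listed, so equal numbers pair nothing. By rule, the 5 lysosome genes with the smallest p were named in each comparison of 2 groups, and other members by role. Since none was called there, values in every library were given for those with the smallest adjusted p, and the averaged comparisons were added after the data had been seen. Up to 5 promoters with TCACGTG were printed, by smallest adjusted p. Coordinates of genes are from GENCODE M21 (GRCm38), promoters from RefSeq (GRCm38.p6). A list score is the median over its genes of log2 values centred per gene.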

Additional observations from a re-analysis of the deposited data

Results flagged for a closer look

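In 16 of 188 tests of a group of 5 libraries (46 genes and their score, 4 groups), the highest or lowest library stood so far from the nearest other that its gap exceeded 0.710 of the group's range. Chance flags about 1 in 20 groups. Of the 16, 8 were in Tert+/+ old 4, 4 in Tert+/+ young 1, 3 in G3 Tert-/- young 4 and 1 in G3 Tert-/- old 2.

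Tert+/+ old 4 had the highest normalized count of its group for the aspartic protease Ctsd (4453, against 2745 to 3185 in the others), Naglu (445), Asah1 (194), Npc2 (1365), Smpd1 (651), Grn (1671) and the transcription factor Tfe3 (164), and the lowest for Scarb2 (221, against 315 to 346). Tert+/+ young 1 had the highest count for the cysteine protease Ctsf (343), the glycogen-degrading Gaa (362) and the acid ceramidase Asah1 (495), and the lowest for Cd63 (2319). These libraries are also the 2 that stood apart over all abundant genes. G3 Tert-/- young 4 had the highest count for Smpd1 (888) and Tfeb (117) and the lowest for Neu1 (1441, against 2054 to 2170 in the others). G3 Tert-/- old 2 had the highest count for Cd63 (11186, against 10123 to 10316).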

How the results depend on the processing

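In the averaged age comparison, 3 lysosome genes were called. DESeq2 called 5 and the fit without Tert+/+ young 1 and Tert+/+ old 4 called 6. Over all tested genes the calls were 657 at first, 924 with DESeq2 and 944 without both libraries. With any 1 library left out the count of lysosome genes ran from 2 to 5, and that of all tested genes from 501 to 858. The lysosome count was 5 without Tert+/+ old 1 or without Tert+/+ young 1, and 2 without Tert+/+ old 3 or Tert+/+ old 5. Lamp2 and Arsb were called in every one of these settings. Within G3 Tert-/-, old against young, the count of 0 became 3 with DESeq2, 4 without both libraries that stood apart and 0 to 1 with any 1 library left out. It was 1 without G3 Tert-/- old 4, G3 Tert-/- young 3 or G3 Tert-/- young 5. Over all tested genes the calls there were 327 at first, 530 with DESeq2 and 661 without both libraries. DESeq2 also called 1 lysosome gene within Tert+/+ and 1 between the genotypes averaged over ages. Its calls over all tested genes were 211 and 56 there, against 95 and 4 by limma. All other counts of called lysosome genes, under edgeR, TMM scaling, a pseudocount of 4, no filter and only the 2 groups compared, equalled the first ones. No called gene reversed its direction. The median log2 fold change within Tert+/+, old against young, ran from -0.12 to -0.04 with any 1 library left out, lowest in size without Tert+/+ old 4. The share of promoters with CACGTG was 26.8% when only the last 200 bases were searched, against 31.7%. No paired analysis was possible because the labels give no numbers shared between groups. Ctsk, Gla, Arsa and Idua had group means under 50 normalized counts, so counting error weighs on their values.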
